A study of Mus musculus with 6 samples.

Results

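The comparison described here sets GC2 cells exposed to triptolide against control GC2 cells, transcript by transcript. Its members are the 2 triptolide libraries and the 2 control libraries among the 6 libraries of the series, chosen by the agent named in the labels. The remaining 2 libraries, from cells given triptonide, served only to estimate the spread between libraries of a group. GC2 (GC2-spd) is a mouse cell line derived from spermatocytes and immortalised with a viral oncogene. Per the labels' protocols, 100000 cells per well were grown for 12 h in 2 mL of medium, and triptolide was then given at 0.1 µM for 24 h. All groups share the line and the culture conditions, and the labels name no vehicle for the controls. RNA was freed of ribosomal RNA and read as 150-base pairs from strand-specific libraries, so RNA without a poly(A) tail was also measured. Whether replicates are separate cultures is not stated, and the p-values below then reflect only the spread between these libraries, which may be technical. The treatment protocol has the same wording for every sample, and each label names the cell line although the series' design mentions testis.

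Triptolide is an epoxide-bearing diterpenoid that binds the XPB helicase of TFIIH, the general factor that opens DNA for RNA polymerase II, and it is known to lead to loss of the polymerase itself. With little new synthesis, the RNA left in a cell depends on how long each RNA lasts, while RNAs made by other polymerases or by mitochondria follow their own course. Sequencing reports each transcript as a part of the whole, in FPKM (fragments per kilobase of transcript, relative to all mapped fragments), so a change of a few very abundant RNAs shifts the value of all others. In such bulk samples, fewer cells and less RNA per cell cannot be told apart.

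The table lists 65535 transcripts, 65189 with mouse Ensembl IDs and 346 assembled by the authors' pipeline without an Ensembl ID, which are called unannotated. It does not pair transcripts with gene symbols, and 0 of the IDs were found in the gene tables used here, so transcripts are named by ID, with no statement on their function, and markers of spermatocytes or other cells were not checked. Its length raises the possibility that further rows existed, so "most abundant" means within the rows used here. The same holds for every summed FPKM, share of a sum, scaling factor and count of transcripts below. Absolute depth is unknown. Steps in the low values, which were faint between the groups, gave relative depths of 0.597 and 0.671 in the triptolide libraries and 0.818 and 1.0 in the control libraries. Summed FPKM was 588470 and 503572 after triptolide, against 372058 and 349558 in control.

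Triptolide changed 8586 of 21449 tested transcripts, or 40.0%. Of these, 2961 rose (13.8% of those tested) and 5625 fell (26.2%). The test covered transcripts that reached 0.5 FPKM in 2 or more of the 4 libraries, on log2(FPKM + 0.5), a scale that understates the change of low transcripts. Rises and falls here are changes with a limma adjusted p under 0.05. The larger of these changes leaned the other way. Rises of at least 2-fold numbered 1676 (7.81%) and falls 2701 (12.6%), whereas at least 4-fold changes numbered 458 rises and 334 falls, at least 8-fold 154 and 61, and at least 16-fold 60 and 18. The median log2 fold change was 1.10 among rises and -0.98 among falls. With 2 libraries against 2, an exact permutation test of 1 transcript cannot go below p = 0.333, so the calls rest on the spread pooled over transcripts.

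The direction of change followed abundance. Classes were set by the mean FPKM of the 4 libraries, which favours neither direction as such. Falls were most frequent among transcripts of 10 to 30 FPKM, where 46.4% of 2370 fell and 14.4% rose. Rises were most frequent among transcripts of 1000 FPKM and over, where 17 of 21 rose and 1 fell. Between these, transcripts of 30 to 100 FPKM had 27.6% rises and 37.2% falls, and those of 100 to 1000 FPKM leaned to rises, at 50.9% against 24.0% falls. On the low side, 36.2% fell and 10.3% rose at 3 to 10 FPKM, 20.7% fell and 10.1% rose at 1 to 3 FPKM, and 16.5% fell and 15.9% rose under 1 FPKM. The balance in several classes turned with the scaling. With median-of-ratios factors 18.9% rose and 10.1% fell under 1 FPKM, 13.7% rose and 11.6% fell at 1 to 3 FPKM, and 43.6% rose and 19.9% fell at 30 to 100 FPKM, while at 3 to 10 FPKM 17.1% rose and 23.2% fell. Without any 1 of the 6 libraries, rises outnumbered falls under 1 FPKM, with 9.31% rises and 6.36% falls without control replicate 1, and 10.3% and 5.29% without control replicate 2. The median log2 fold change was -0.16 under 1 FPKM and then -0.31, -0.43, -0.38, -0.08, 0.33 and 1.23 in the classes of rising abundance.

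**Figure D1:**
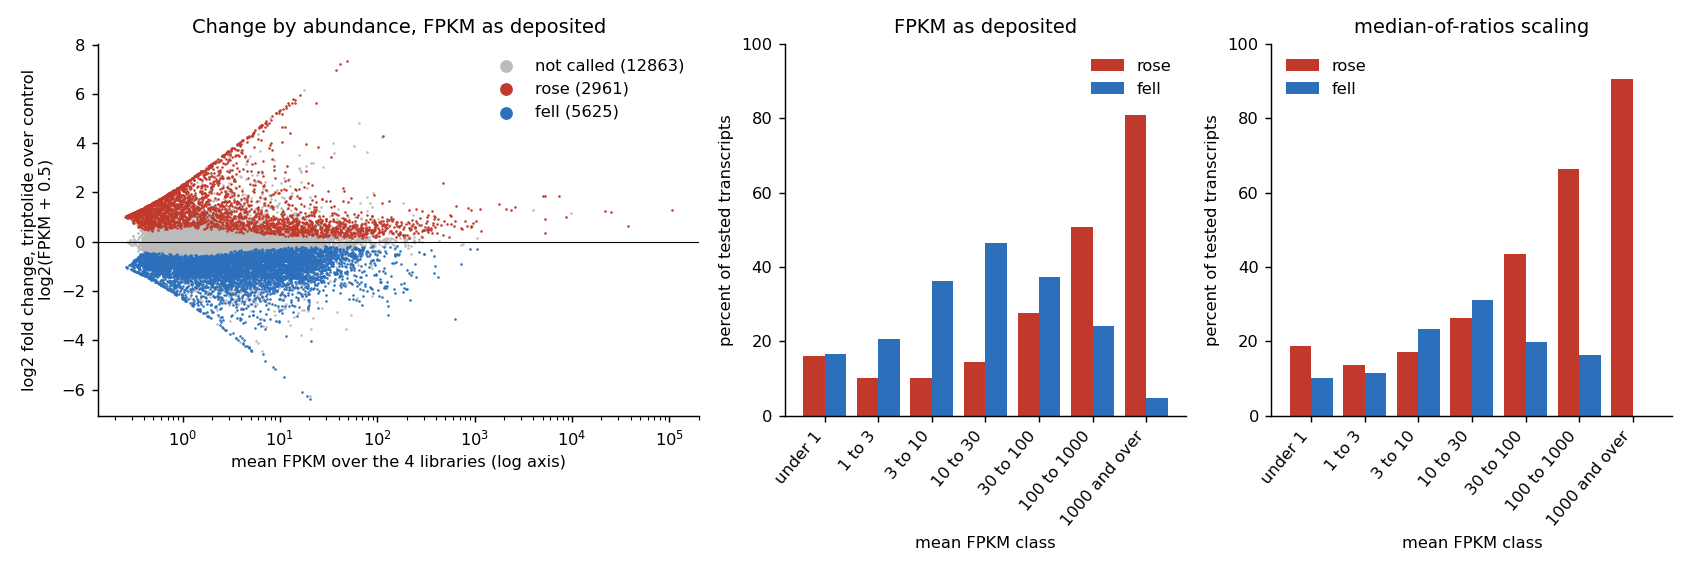
Left, log2 fold change of triptolide over control against mean FPKM of the 4 libraries (log axis), 1 point per tested transcript, coloured by call. Middle and right, percent of tested transcripts that rose or fell in each class of mean FPKM, for deposited FPKM and after median-of-ratios scaling: falls peak at 10 to 30 FPKM in both, at 46.4% and 31.1%, and rises reach 81.0% and 90.5% in the most abundant class.

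The spread between libraries also changed with abundance. Its median, as a residual SD on the log2 scale over the 3 groups, was 0.235 under 1 FPKM, 0.261 at 1 to 3 FPKM, 0.179 at 3 to 10 FPKM, 0.0884 at 10 to 30 FPKM, 0.0706 at 30 to 100 FPKM, 0.0624 at 100 to 1000 FPKM and 0.102 at 1000 FPKM and over. The share of calls in a class therefore also depends on its spread. Falls of at least 2-fold made up nearly equal shares at 3 to 10 FPKM (19.0%) and at 10 to 30 FPKM (18.9%), and 6.83% under 1 FPKM. Which of the first 2 classes was higher turned with the scaling. The shares were 20.4% and 21.3% with the sum outside the 10 most abundant, and 10.0% and 9.28% with the median of ratios. With quantile normalization the highest share was at 100 to 1000 FPKM, at 14.1%. Rises of at least 2-fold made up 11.6% under 1 FPKM, 3.59% at 10 to 30 FPKM and 57.1% at 1000 FPKM and over. The share of falls of any size was highest at 10 to 30 FPKM under each of the 23 alternatives to the test or the classes. Among these were classes set by triptolide levels alone (36.3%) or by control levels alone (51.8%). Under 1 FPKM the classes mattered more, since with classes by triptolide mean 7.28% rose and 25.4% fell there, and with classes by control mean 25.8% rose and 9.36% fell.

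The largest rises among transcripts above 0 FPKM in all 4 libraries came from levels close to 0. The largest was that of ENSMUST00000200289, at 73.8 and 122 FPKM after triptolide, against 0.0902 and 0.0895 FPKM in control (log2 fold change and SE 7.34 ± 0.26, limma adjusted p = 0.000653). Next came ENSMUST00000218604, at 81.7 and 82.6 FPKM after triptolide, against 0.0364 and 0.0653 FPKM in control (log2 fold change and SE 7.23 ± 0.14, limma adjusted p = 0.000473). Both belong to the class of 30 to 100 FPKM, and their groups lay apart. Transcripts named for the largest changes, and those in the named switches below, were chosen by their change in these same libraries. That their groups lie apart therefore adds nothing to the calls. At 10 to 30 FPKM, ENSMUST00000178317 had 26.9 and 26.6 FPKM after triptolide, against 0.0304 and 0.0779 FPKM in control, a log2 fold change (± SE) of 5.62 ± 0.11 (limma adjusted p = 0.000468). ENSMUST00000179502 had 31.8 and 24.9 FPKM after triptolide, against 0.0244 and 0.148 FPKM in control, a log2 fold change (± SE) of 5.62 ± 0.17 (limma adjusted p = 0.000562). In each of these 4 transcripts neither control library reached 1 FPKM.

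Lower transcripts showed the same form. ENSMUST00000176875 had 20.2 and 19.2 FPKM after triptolide, against 0.0114 and 0.0166 FPKM in control, a log2 fold change (± SE) of 5.30 ± 0.12 (limma adjusted p = 0.000562). ENSMUST00000204003 lay next to it in size, with 19.8 and 19.2 FPKM after triptolide, against 0.0423 and 0.0390 FPKM in control (limma adjusted p = 0.000512). The unannotated transcript XLOC.5972.2 had 5.11 and 6.52 FPKM after triptolide, against 0.0643 and 0.159 FPKM in control (log2 fold change and SE 3.36 ± 0.21, limma adjusted p = 0.00105). For these 3 transcripts the groups did not overlap either, and the 2 libraries of the triptolide group lay within 1.5 FPKM of each other. ENSMUST00000166076 had 5.67 and 4.59 FPKM after triptolide, against 0.0118 and 0.00376 FPKM in control, and ENSMUST00000128338, the largest rise under 1 FPKM, had 1.68 and 2.17 FPKM after triptolide, against 0.0188 and 0.0291 FPKM in control.

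Among abundant transcripts the rises were smaller in log2 terms and much larger in FPKM. ENSMUST00000083977, the largest rise at 1000 FPKM and over, had 9085 and 7352 FPKM after triptolide, against 2145 and 2362 FPKM in control, a log2 fold change (± SE) of 1.86 ± 0.12 (limma adjusted p = 0.00104). At 100 to 1000 FPKM the largest rise was that of ENSMUST00000108612, with 409 and 33.4 FPKM after triptolide, against 5.54 and 5.44 FPKM in control. Both triptolide values lay above both control values, but they differed from each other more than 10-fold, and the call (limma adjusted p = 0.0438) was lost in the fit of the 4 libraries (adjusted p = 0.0841) and without any 1 control or triptonide library (adjusted p = 0.0844 to 0.144).

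Among the largest falls at 3 to 30 FPKM, some ended near 0 and others at a few FPKM. ENSMUST00000083936 had 0.00247 and 0.00274 FPKM after triptolide, against 18.6 and 16.6 FPKM in control, a log2 fold change (± SE) of -5.17 ± 0.16 (limma adjusted p = 0.000562). ENSMUST00000066177 had 2.01 and 1.81 FPKM after triptolide, against 38.4 and 40.2 FPKM in control, a log2 fold change (± SE) of -4.05 ± 0.07 (limma adjusted p = 0.000460). The triptolide libraries agreed closely for both transcripts and lay far below the controls. ENSMUST00000138401 fell as well, at 2.30 and 3.53 FPKM after triptolide, against 24.6 and 28.8 FPKM in control (limma adjusted p = 0.00854, and 0.0510 without control replicate 2). ENSMUST00000107586 had 0.0284 and 0.00859 FPKM after triptolide, against 15.8 and 18.4 FPKM in control. Its call was borderline (limma adjusted p = 0.0421), since the triptonide libraries that enter the spread had 0.159 and 11.5 FPKM. In the fit of the 4 libraries its adjusted p was 0.00391, and without any 1 triptolide or control library 0.132 to 0.145.

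More abundant falling transcripts kept a measurable level. ENSMUST00000108657 had 117 and 142 FPKM after triptolide, against 1142 and 1126 FPKM in control, a log2 fold change (± SE) of -3.13 ± 0.10 (limma adjusted p = 0.000562). ENSMUST00000062045 had 20.002 and 19.7 FPKM after triptolide, against 106 and 111 FPKM in control (log2 fold change and SE -2.42 ± 0.10, limma adjusted p = 0.000663). In both the 2 libraries of a group were close to each other. ENSMUST00000003156 was more variable, with 12.6 and 29.1 FPKM after triptolide, against 94.1 and 141 FPKM in control (limma adjusted p = 0.0153, and 0.0766 without control replicate 2). The 1 called fall at 1000 FPKM and over was small with FPKM as deposited. ENSMUST00000001051 had 964 and 949 FPKM after triptolide, against 1141 and 1184 FPKM in control, a log2 fold change (± SE) of -0.28 ± 0.04 (limma adjusted p = 0.00712). Its change depended on the scaling, at 0.072 with median-of-ratios factors (limma adjusted p = 0.271) and -1.09 with quantile normalization (limma adjusted p = 0.000601).

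Of the falls under 3 FPKM, ENSMUST00000140643 had 0.0343 and 0.0597 FPKM after triptolide, against 6.49 and 3.31 FPKM in control (log2 fold change and SE -3.24 ± 0.32, limma adjusted p = 0.00248). ENSMUST00000110019 had 0.163 and 0.0845 FPKM after triptolide, against 4.86 and 5.36 FPKM in control (limma adjusted p = 0.0223), and ENSMUST00000110859 had 0.0310 and 0.0111 FPKM after triptolide, against 1.12 and 2.80 FPKM in control (limma adjusted p = 0.0161). The groups were apart in all 3 of these transcripts. For ENSMUST00000110019 the triptonide libraries, which enter the spread, had 2.19 and 0.157 FPKM. In the fit of the 4 libraries its limma adjusted p was 0.00466. Of the 3 calls, 2 did not hold with 1 library left out. That of ENSMUST00000110019 was lost without any 1 triptolide or control library (adjusted p = 0.0830 to 0.0947), and that of ENSMUST00000110859 without either triptolide library (adjusted p = 0.0691 and 0.0714).

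**Figure D2:**
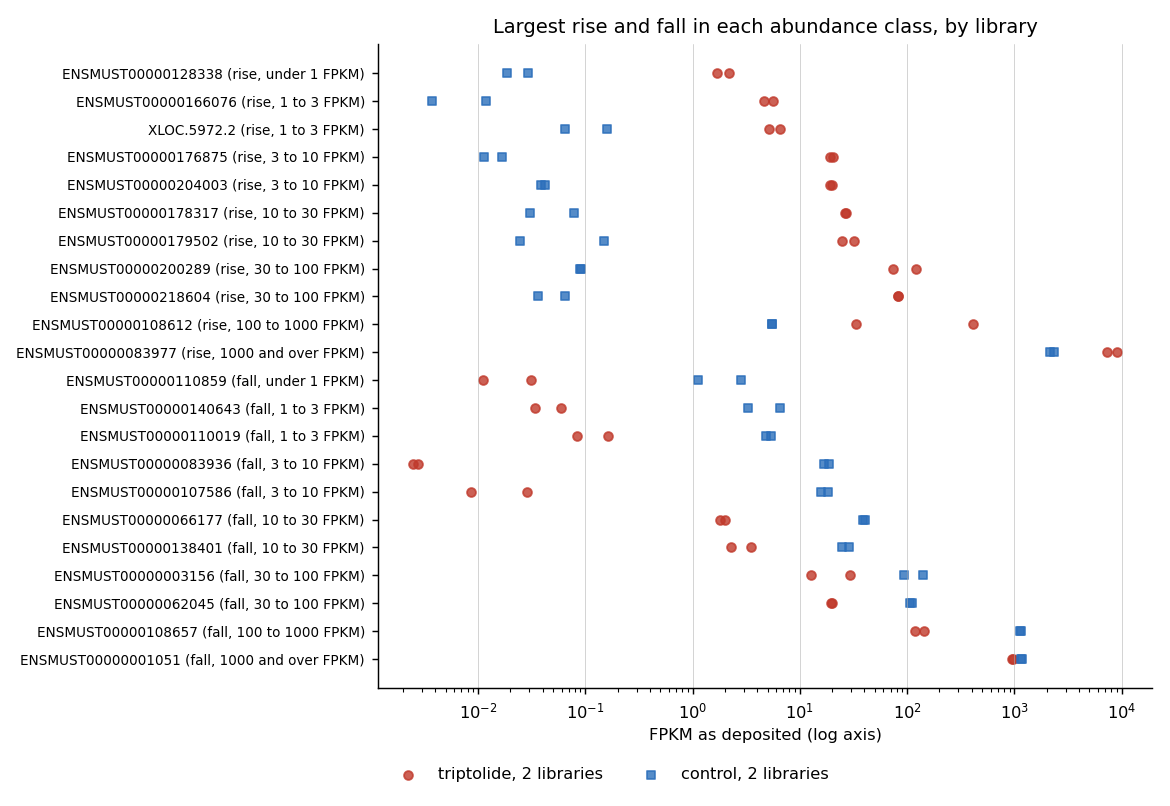
FPKM as deposited (log axis) in each library for the transcripts with the largest called rise and fall in each class of mean FPKM, circles for the 2 triptolide libraries and squares for the 2 control libraries. The groups are apart in every transcript shown, which follows from choosing them by their change in these libraries. The widest gap within a group is that of ENSMUST00000108612 after triptolide, at 409 and 33.4 FPKM.

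Some transcripts were listed at 0 in both libraries of 1 group, which in such a table can also be a failed estimate. With at least 1 FPKM in both triptolide libraries and 0 in both control libraries there were 191 transcripts, 71 of them unannotated, with a median of 2.17 FPKM after triptolide. The highest were ENSMUST00000125544, at 35.9 and 34.6 FPKM after triptolide, and XLOC.610.3, at 28.7 and 25.9 FPKM. The triptonide libraries differed widely for both, with 0 and 36.9 FPKM for ENSMUST00000125544 and 0 and 13.6 FPKM for XLOC.610.3, which widened the spread. Their limma adjusted p was 0.0705 and 0.0427, against 0.00368 for each in the fit of the 4 libraries, while that of XLOC.610.3 was 0.132 to 0.142 without any 1 triptolide or control library. The opposite pattern was listed for 73 transcripts, 5 of them unannotated, with a median of 2.51 FPKM in control. The highest of these were ENSMUST00000191104, at 40.3 and 41.6 FPKM in control, and ENSMUST00000116669, at 37.2 and 38.6 FPKM in control. Equal values of 0 add no spread, so p-values of such transcripts may be too small. As a scale for the unannotated members of both patterns, 270 of all 21449 tested transcripts were unannotated.

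A few RNAs held much of the summed FPKM. FPKM is divided by transcript length, so this is not a share of sequenced fragments. After triptolide, 4 and 6 transcripts made up 50% of the summed FPKM, against 48 and 85 in control. The most abundant was ENSMUST00000102303, with 192449 and 111558 FPKM after triptolide, against 68595 and 53794 FPKM in control. Both triptolide values were higher, yet they differed from each other 1.73-fold, and the call (limma adjusted p = 0.0301, log2 fold change 1.27 ± 0.30, SE) was lost in the fit of the 4 libraries (adjusted p = 0.0678) and without triptolide replicate 1, either control library or either triptonide library (adjusted p = 0.0628 to 0.125). ENSMUST00000192833 had 42356 and 48719 FPKM after triptolide, against 30083 and 29077 FPKM in control (log2 fold change and SE 0.62 ± 0.10, limma adjusted p = 0.0102).

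The next in abundance rose by more than 2-fold. ENSMUST00000175032 had 34929 and 36058 FPKM after triptolide, against 16404 and 14250 FPKM in control (log2 fold change and SE 1.21 ± 0.09, limma adjusted p = 0.00128). ENSMUST00000174924 had 29430 and 31231 FPKM after triptolide, against 13854 and 12060 FPKM in control (limma adjusted p = 0.00130). The groups did not overlap in either, but the share of all tested transcripts whose groups lay apart was not counted. The fifth, ENSMUST00000196643, had 11935 and 15270 FPKM after triptolide, against 6587 and 5598 FPKM in control, and did not pass (limma adjusted p = 0.868), because triptonide replicate 2 listed it at 0.0751 FPKM and triptonide replicate 1 at 9448 FPKM. In the fit of the 4 libraries it passed, with an adjusted p of 0.0182.

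In FPKM, transcripts that rose summed to 455854 and 369168 after triptolide, against 205517 and 184287 in control. Without the 10 most abundant transcripts the same sums were 106594 and 103221 after triptolide, against 55830 and 57049 in control. Transcripts that fell summed to 40468 and 41816 after triptolide, against 82957 and 82443 in control. These sets were chosen by their change in the same libraries, so the sums describe sizes and test nothing. Transcripts of 1000 FPKM and over held 64.8% of the summed FPKM after triptolide and 43.9% in control. Those of 10 to 30 FPKM held 6.47% after triptolide and 12.4% in control.

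How far the abundant RNAs moved the size of all other changes depended on how many were taken out. The summed FPKM of triptolide libraries was 1.51 times that of control libraries. Outside the 10 most abundant transcripts the sum was still 1.04 times control, outside the 100 most abundant it was 0.877 times, and outside the 1000 most abundant 0.811 times. Median-of-ratios factors, which take the typical transcript as fixed, put it at 0.783 times. On the log2 scale, factors from the sum outside the 10 most abundant therefore differed between groups by 0.06, which moves fold changes down. Those from the sum outside 100 or 1000 and the median of ratios differed by 0.19, 0.30 and 0.35, which moves them up. The tested scale adds a constant to FPKM, so fold changes of low transcripts moved by less than these factors. With the median of ratios, the median log2 fold change went from -0.16 to 0.028 under 1 FPKM. At 100 to 1000 FPKM it went from 0.33 to 0.68.

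The split of calls followed. With FPKM as deposited 65.5% of calls were falls, and this was 68.3% with the sum outside the 10 most abundant (2758 rises, 5939 falls), 55.1% with that outside 100 (3585 and 4391), 48.4% with that outside 1000 (4003 and 3756), 50.8% with quantile normalization (3826 and 3949) and 45.4% with the median of ratios (4174 and 3465). Over all tested transcripts the median log2 fold change was -0.27 as deposited, and -0.31, -0.13, -0.048, -0.072 and -0.010 in the same order of scalings. Under all 6 scalings 2722 transcripts rose and 3377 fell. For changes of at least 2-fold these were 1570 rises and 1416 falls, and 21 transcripts rose under 1 scaling and fell under another. Falls of at least 16-fold numbered between 16 and 20 and rises of at least 16-fold between 56 and 77 over the 6 scalings.

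**Figure D3:**
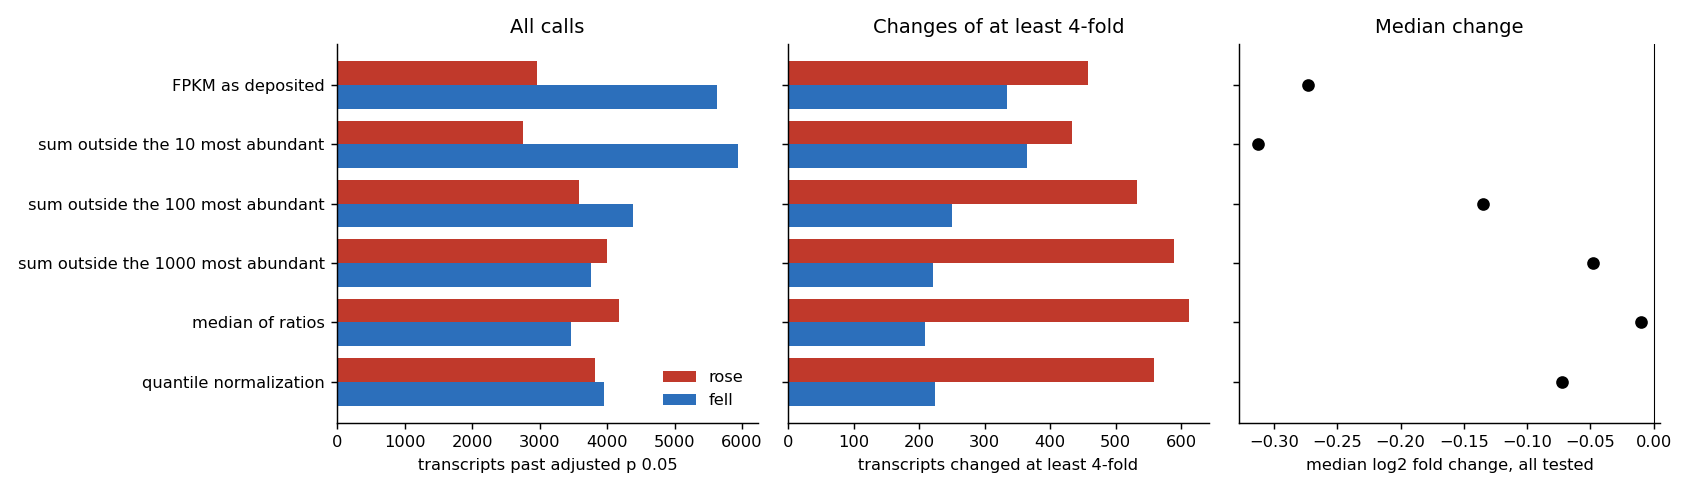
Transcripts that rose or fell (left), those that did so by at least 4-fold (middle) and the median log2 fold change over 21449 transcripts (right) with FPKM as deposited and under 5 rescalings. Falls outnumber rises as deposited (5625 against 2961) and not with median-of-ratios factors (3465 against 4174), while 4-fold rises outnumber 4-fold falls in each row, as deposited by 458 to 334.

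The class with the highest share of falls did not depend on the scaling. Falls peaked at 10 to 30 FPKM under each of the 6 scalings, at 47.9%, 37.3%, 33.1%, 31.4% and 31.1% with the sums outside 10, 100 and 1000, quantile normalization and the median of ratios. Rises at 100 to 1000 FPKM were 47.0%, 59.0%, 63.6%, 41.7% and 66.4% in that order, against 50.9% as deposited. Quantile normalization gives the libraries equal values at each rank, and under it 5 of the 21 transcripts of 1000 FPKM and over rose and 4 fell. The set of most abundant transcripts depends on its ranking. Of the 100 most abundant, 75 rose and 13 fell when ranked by the mean of the 4 libraries, 83 rose and 5 fell when ranked by triptolide, and 61 rose and 26 fell when ranked by control.

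Neighbouring transcripts moved together somewhat more often than transcripts farther apart in the table, though most pairs did not. Along the table the numbers of assembled loci did not fall in 343 of 345 steps, so row order was taken to follow the genome, and neighbours are 2 tested transcripts next to each other and at most 5 rows apart. They can be isoforms of 1 gene, overlapping genes or separate genes, and overlapping transcripts share fragments that quantification has to divide. Of 18962 neighbouring pairs, 739 rose together (3.90%) and 1685 fell together (8.89%). In 1031 pairs (5.44%) 1 member rose and the other fell. A switch, in which each did so by at least 2-fold, was seen in 278 pairs (1.47%), and in 15 pairs each member changed by at least 4-fold. Next to a transcript that rose, 29.2% of neighbours rose and 20.3% fell. Next to one that fell, 34.7% fell and 10.6% rose. These compare with 13.8% rises and 26.2% falls over all tested transcripts.

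Pairs farther apart give a scale for these shares. For tested transcripts 1, 10 and 1000 places apart in the table, with no limit on rows, both fell in 9.06%, 7.08% and 7.05% of pairs and both rose in 3.84%, 2.08% and 2.00%. Switches of at least 2-fold made up 1.57%, 1.91% and 1.92%, fewer among next neighbours than at a distance, and with median-of-ratios scaling 1.23%, 1.47% and 1.56%. Switches in which each member changed at least 4-fold numbered 17, 6 and 19 at these distances, and at least 8-fold 4, 0 and 1. The 6 was the lowest 4-fold number of all distances looked at, with 22 at 2 places, 11 at 5 and 17 at 20. Across transcripts, the Pearson correlation of log2 fold changes was 0.214 at 1 place, 0.0417 at 10 and -0.00399 at 1000. This is a description over 20449 to 21448 pairs that share libraries and often fragments.

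**Figure D4:**
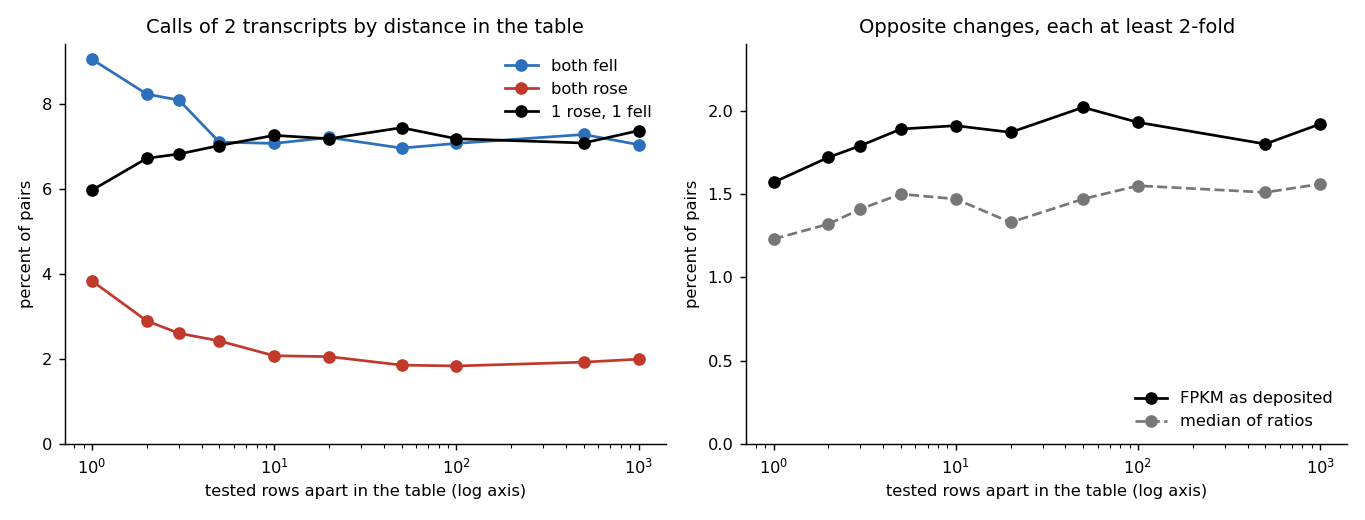
Percent of pairs of tested transcripts in which both fell, both rose or 1 rose and 1 fell (left), and in which they changed in opposite directions by at least 2-fold each (right), against the number of tested rows between them in the table (log axis). Next neighbours both fell in 9.06% of pairs against 7.05% at 1000 rows, and switched in 1.57% against 1.92%.

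Within a switch, the share of 1 member in the summed FPKM of the pair does not change when a library is divided by a factor. Over the 278 switches the median share of the rising member was 50.6% after triptolide and 1.73% in control, and in 123 pairs it lay above 50% in both triptolide libraries and below 50% in both control libraries. The pairs were chosen by opposite changes in these same libraries, so the direction of this shift is built in. The shares describe its size and test nothing. With FPKM as deposited, the pair sum was lower after triptolide in 221 pairs and higher in 57 (median log2 fold change -0.64). The groups' sums were within 2-fold in 176. Unlike the share, the pair sum depends on the scaling, and it was not computed under the rescalings. As deposited, the 21449 tested transcripts already leaned down, with a median of -0.27, so the lower sums are not shown to be particular to switches. In 155 of the 278 pairs the switch held under all 6 scalings. An unannotated transcript was the rising member in 19 pairs (6.83%), against 8.83% of all 2-fold rises, and the falling member in 0. Only 270 of the 21449 tested transcripts were unannotated, and their share among 2-fold falls was not counted.

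Of the 6 named switches, 4 crossed from one dominant member to the other. In the pair of ENSMUST00000152239 and ENSMUST00000150911 the first made up 98.6% and 97.4% after triptolide, against 7.70% and 2.44% in control. ENSMUST00000152239 had 6.05 and 6.64 FPKM after triptolide, against 0.203 and 0.0735 FPKM in control (log2 fold change and SE 3.43 ± 0.16, limma adjusted p = 0.000715). ENSMUST00000150911 had 0.0869 and 0.176 FPKM after triptolide, against 2.43 and 2.94 FPKM in control (log2 fold change and SE -2.33 ± 0.27, limma adjusted p = 0.00374). Both members separated the groups, and the pair sum was higher after triptolide, at 6.14 and 6.82 FPKM against 2.63 and 3.01 FPKM in control.

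The pair of ENSMUST00000001439 and ENSMUST00000088248 lay at higher levels and its sum was lower after triptolide, at 29.7 and 31.3 FPKM against 53.5 and 51.4 FPKM in control. ENSMUST00000001439 had 20.9 and 22.1 FPKM after triptolide, against 1.79 and 2.53 FPKM in control (limma adjusted p = 0.000804). ENSMUST00000088248 had 8.76 and 9.17 FPKM after triptolide, against 51.7 and 48.9 FPKM in control (limma adjusted p = 0.00197). The first made up 70.5% and 70.6% of the pair after triptolide, against 3.35% and 4.91% in control, with very similar shares in the libraries of a group. The unannotated XLOC.1807.1 took 92.6% and 91.7% of its pair with ENSMUST00000180046 after triptolide, against 1.72% and 7.26% in control, at 4.80 and 6.40 FPKM after triptolide, against 0.0922 and 0.229 FPKM in control (limma adjusted p = 0.00139). ENSMUST00000180046 had 0.381 and 0.581 FPKM after triptolide, against 5.28 and 2.92 FPKM in control (limma adjusted p = 0.0163, and 0.0570 to 0.0760 without triptolide replicate 1 or 2 or control replicate 1).

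The other named pairs were less even between libraries. ENSMUST00000107422 made up 53.8% and 82.2% of its pair with ENSMUST00000039110 after triptolide, against 5.25% and 3.87% in control. ENSMUST00000039110 had 7.63 and 1.78 FPKM after triptolide, against 29.8 and 23.4 FPKM in control (limma adjusted p = 0.0279, and 0.0597 in the fit of the 4 libraries and 0.0926 to 0.116 without either control library). ENSMUST00000193266 made up 29.98% and 59.0% of its pair with ENSMUST00000029303 after triptolide, against 2.45% and 1.83% in control, so the triptolide libraries stood on either side of 50%. ENSMUST00000029303 had 8.28 and 4.56 FPKM after triptolide, against 30.2 and 30.3 FPKM in control (limma adjusted p = 0.00430).

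The pair of ENSMUST00000107658 and ENSMUST00000081775 was mostly a rise of 1 member. ENSMUST00000107658 had 60.0 and 63.0 FPKM after triptolide, against 4.19 and 6.41 FPKM in control (log2 fold change and SE 3.44 ± 0.20, limma adjusted p = 0.000950). ENSMUST00000081775 had 1.52 and 0 FPKM after triptolide, against 8.01 and 4.93 FPKM in control. Its adjusted p of 0.0422 became 0.0676 with median-of-ratios scaling and 0.0729 in the fit of the 4 libraries, and the pair sum was higher along with its rising member, at 61.5 and 63.0 FPKM after triptolide, against 12.2 and 11.3 FPKM in control.

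**Figure D5:**
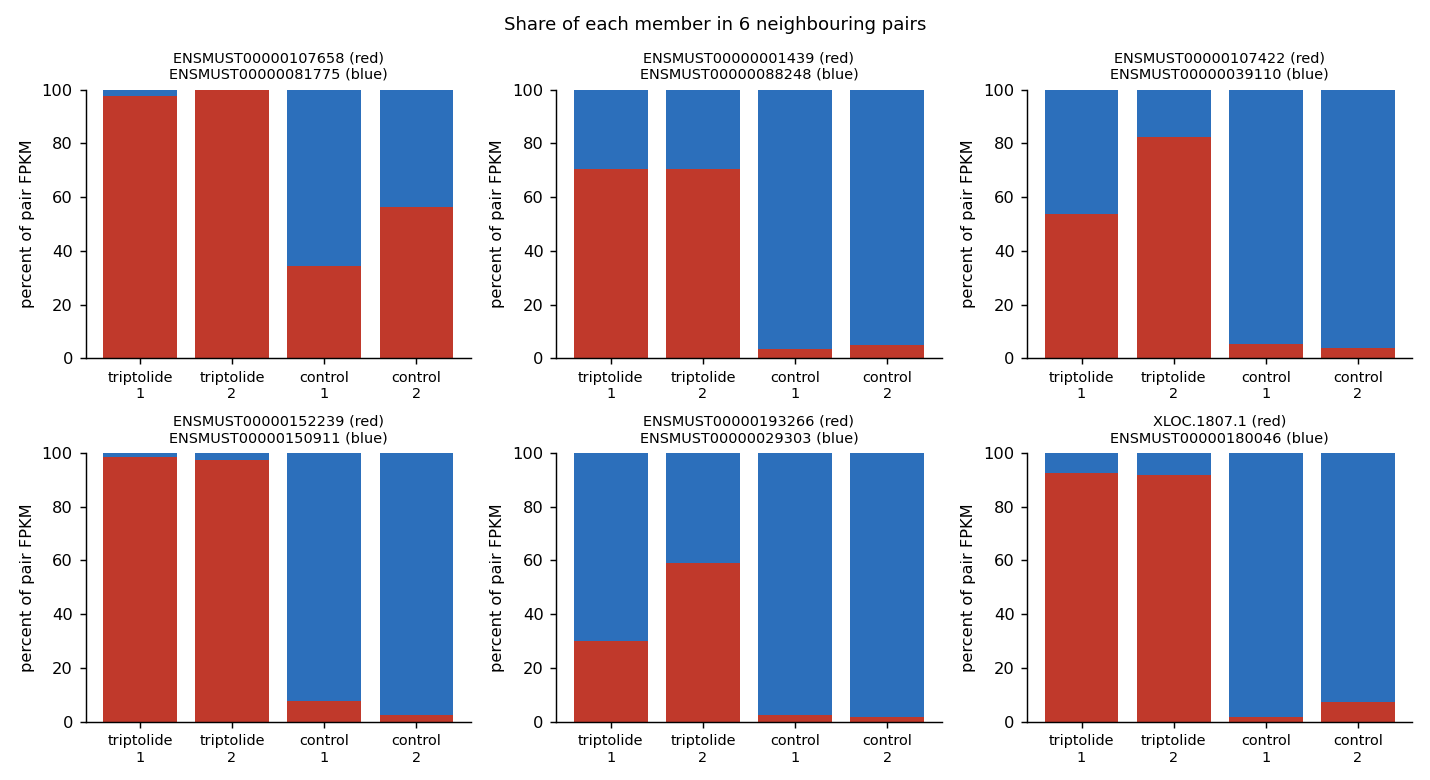
Share of the summed FPKM of a pair held by its rising member (red) and its falling member (blue) in the 2 triptolide and 2 control libraries, for the 6 switches with the largest smaller change among pairs with both members above 0 FPKM in each group. The rising member holds 29.98% to 100% after triptolide and 1.72% to 56.5% in control; the highest control shares, 34.3% and 56.5%, belong to ENSMUST00000107658.

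The 3 widest switches had a member at or next to 0 in a group and were named after their values were seen. ENSMUST00000196710 had 7.38 and 8.90 FPKM after triptolide and was listed at 0 in both control libraries, beside ENSMUST00000083936, described above as falling to near 0. ENSMUST00000187584 had 8.64 and 8.04 FPKM after triptolide, against 0.245 and 0.412 FPKM in control, next to ENSMUST00000191104, listed at 0 after triptolide and at 40.3 and 41.6 FPKM in control. ENSMUST00000003726 had 15.0 and 16.1 FPKM after triptolide, against 0.959 and 1.18 FPKM in control, next to ENSMUST00000121285, listed at 0 after triptolide and at 32.1 and 34.5 FPKM in control. In each of the 3 pairs the riser was the adjacent row, and its level after triptolide stayed below the control level of the member that fell.

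Some longer stretches of neighbours moved together. There were 81 separate runs of at least 5 tested transcripts in a row that all fell and 24 that all rose. Over all tested transcripts 26.2% fell and 13.8% rose, and the number of runs to be expected from these shares was not computed. The longest falling run, of 10 transcripts over 12 rows from ENSMUST00000102972 to ENSMUST00000079251, had 16.9 to 125 FPKM after triptolide, against 57.3 to 335 FPKM in control, with log2 fold changes of -2.41 to -1.37. The longest rising run, of 28 transcripts over 46 rows from ENSMUST00000193248 to ENSMUST00000098878, had 0.510 to 16.8 FPKM after triptolide, against 0 to 0.169 FPKM in control, and 14 of the 28 were listed at 0 in both control libraries. The 10 falls were also called with median-of-ratios scaling, which moves fold changes up. Transcripts of a run may overlap and share fragments, so they are not independent measurements. Among unannotated loci with at least 2 tested transcripts, 30 in all, every tested transcript rose in 7, and 2 held both a rise and a fall. As a scale, unannotated transcripts made up 8.83% of the 1676 rises of at least 2-fold, and only 270 of them were tested. Rises were thus common among unannotated transcripts in general, and the 7 loci are not shown to stand out. Loci in which every transcript fell were not counted.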

How the data were processed

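The authors deposited 1 FPKM value per transcript and library. STAR and StringTie are named without versions, and the build as hg19, in the submitters' processing notes; the IDs are mouse, so the build is unsettled and no coordinates are given. FPKM values were used as deposited. Those that reached 0.5 FPKM in 2 or more of the 4 triptolide and control libraries were tested on log2(FPKM + 0.5) with limma 3.58.1 (R 4.3.3), using 1 fit of all 6 libraries with 3 group means and an intensity trend (3 residual and 1.69 prior degrees of freedom), with Benjamini-Hochberg adjustment over 21449 transcripts and a threshold of 0.05. Summaries used Python 3.11.15. The procedure was tested on simulated data. Scaling factors came from the whole table; the median of ratios used transcripts of at least 1 FPKM in all 6 libraries. Relative depth came from the modal log2 ratio of values between 0.01 and 0.2 FPKM in 6 pairs of libraries, fitted to within 0.01. Between a triptolide and a control library the mode was faint. Its bin of log2 ratios held 39 to 52 transcripts, against a median of 24.0 to 24.5 per bin.

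Named transcripts are the largest called rise and fall per abundance class (2 each from 1 to 100 FPKM) above 0 FPKM in all 4 libraries, the 5 most abundant, the 6 switches with the largest smaller change and members above 0 in each group, and the 2 highest listed at 0 in a group. The comparison and these rules were chosen with earlier results of these data known. Planned gene lists and cell type markers need symbols and were not used.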

Additional observations from a re-analysis of the deposited data

How the results depend on the processing

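With 2 libraries a group and unknown depth, a single library can decide a call, and a change that missed the threshold under 3 FPKM, where the spread was widest, is not shown to be absent. With any 1 of the 6 libraries left out, rises numbered 1983 to 2774 and falls 3184 to 5070, rises of at least 2-fold 1384 to 1690 and falls of at least 2-fold 2037 to 2634. Falls numbered 3309 without control replicate 1 and 3184 without control replicate 2, with fewer degrees of freedom in each. The median log2 fold change was then -0.30 to -0.26, the share of falls at 10 to 30 FPKM 36.5% to 44.7%, the share of rises at 100 to 1000 FPKM 42.8% to 47.4%, and switches 215 to 281. Lower classes moved more. Under 1 FPKM, where 16.5% fell and 15.9% rose with all libraries, falls were 6.36% and 5.29% without control replicate 1 or 2 and 7.65% and 8.16% without triptolide replicate 1 or 2, while the rises there came to 9.31% and 10.3% in the same fits without a control library, so that rises outnumbered falls there without any 1 library. At 1 to 3 FPKM falls were 8.93% and 8.57% without control replicate 1 or 2 and 11.3% and 13.1% without triptolide replicate 1 or 2, against 20.7%, and rises 6.71% without control replicate 1, against 10.1%. At 3 to 10 FPKM falls were 23.9% and 23.4% without control replicate 1 or 2, against 36.2%. Rises numbered 4473 without a filter on low values. Falls numbered 3465 with the median of ratios, and falls of at least 2-fold 1593 with the sum outside 1000, 1455 with the median of ratios and 1674 with quantile normalization. Rises of at least 2-fold were 1039 with a pseudocount of 1. The median log2 fold change was -0.35 and -0.22 with pseudocounts of 0.1 and 1, -0.0024 without a filter and -0.33 with a minimum of 1 FPKM. It was -0.31, -0.13, -0.048, -0.010 and -0.072 with the sums outside 10, 100 and 1000, the median of ratios and quantile normalization, and -0.11 and -0.17 with the sum outside 100 ranked by triptolide or by control. Switches numbered 130 with a pseudocount of 1, 157 without a filter, 1031 with no minimum fold, 15 with a minimum of 4-fold, 157 between strictly consecutive rows (1.38% of 11360 pairs) and 46 between Ensembl numbers that differ by 1 (1.40% of 3292). The sign turned for ENSMUST00000001051 with the sum outside 1000 (0.021) and the median of ratios (0.072), and for ENSMUST00000196643 with quantile normalization (-0.18). Except where the scaling, filter or fold minimum itself sets the value, the cause was not tested. Same-numbered libraries did not deviate together (correlations of -0.04, -0.0018 and 0.02), and with the replicate block, which uses a degree of freedom, 2592 rose and 4677 fell, with 1624 and 2568 by at least 2-fold.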
